A study of Rattus norvegicus with 12 samples.

Results

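Genes of fatty acid and triglyceride synthesis were followed across rat liver RNA from intact, hypophysectomised and growth hormone (GH) treated animals. The set was fixed as 33 names, and a probe belonged to it when its gene name on the array, without the suffixes for predicted and mapped genes, was one of them. Of the 33 names, 30 were found, out of 35561 gene names on the array, with 48 probes among the 41012 distinct probes, and the brightest probe stood for each gene. Scd is the current RefSeq symbol for the gene that the array names Scd1, so that this name added no probe. Mlxipl was on the array under the older name Wbscr14 and is given apart from the 30, and Pgd was not found by name or by accession.

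The arrays were 2-colour oligonucleotide arrays, 12 in all, and each set one liver RNA pool directly against another. The compared RNAs were intact males over intact females, hypophysectomised males over intact males, hypophysectomised females over intact females, hypophysectomised males over hypophysectomised females, and hypophysectomised males given GH once or 2 times over hypophysectomised males without GH. Every comparison had 2 arrays with the dyes exchanged. All rats were Fischer 344 of 12 weeks. The untreated and the hypophysectomised animals of each sex gave 2 pools of 3 to 4 livers, one for each array of a dye swap, while the GH-treated males gave a single pool per treatment that went on both arrays. The pool with 1 injection held 4 livers taken 30, 60 or 90 min after it, and the pool with 2 injections held 5 livers from animals injected 3 or 4 h apart. The 2 arrays of a GH comparison are therefore not separate GH samples. Hypophysectomy removes every pituitary hormone and not GH alone, and the sources used here do not tie a pool to an array. For 1 array with 1 injection the channel label omits GH, and its title was followed.

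De novo lipogenesis turns citrate exported from mitochondria into cytosolic acetyl-CoA, carboxylates it to malonyl-CoA and builds palmitate with NADPH, after which elongases and desaturases lengthen and unsaturate the chain. Acyl-CoA synthetases activate fatty acids, and acyltransferases, lipins and diacylglycerol acyltransferases join them to glycerol for storage or for export on very low density lipoprotein. In liver the pathway is known to be driven by feeding, insulin, carbohydrate and thyroid hormone through the transcription factors SREBP-1c and ChREBP. GH, secreted in pulses by male rats and almost continuously by female rats, sets many sex differences of liver transcription through STAT5b.

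Each value below is a log2 ratio of the RNA named first over the RNA named second, and an error is the SE of a limma fit over all 12 arrays unless another is named. A gene was called where its p-value, adjusted over all probes tested in the comparison, was under 0.05. In each dye of each array, 58.9% to 71.7% of the spots were well above background, and all 30 genes were tested in every comparison. The first arrays of the 4 comparisons without GH shared a slide, the second arrays shared another and all GH arrays lay on a slide of their own, so that the paired array values of those 4 comparisons are also the values within each slide. The 10 hepatocyte markers were all on the array, and those tested had ratios of -1.2 to 1.8 over the 6 comparisons. The albumin gene, with a value on 1 of the 2 arrays in 3 comparisons, had ratios of -0.40 to 0.28. The ratios around the loop of the 4 intact and hypophysectomised RNAs summed to between -0.34 and 0.19 for the 30 genes, with SEs of 0.13 to 3.51. In pooled tissue RNA, fewer cells of a type and less RNA per cell cannot be told apart.

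Genes of the set were more often lower than higher in intact males, in hypophysectomised animals of both sexes and after 2 GH injections. In intact males over intact females, 1 gene was called higher and 11 lower, where 8.76% and 8.25% of all probes tested were called in those directions, and the median of the set was -0.28 against -0.01 for all probes. After hypophysectomy of males, 1 gene was called higher and 14 lower, beside 20.1% and 19.5% of all probes, and the medians were -0.58 and 0.01. After hypophysectomy of females the counts were 1 higher and 20 lower, beside 18.9% and 19.5% of all probes, with medians of -1.11 and 0.00. Hypophysectomised males over hypophysectomised females left 0 genes called higher and 1 lower, beside 0.749% and 0.649% of all probes, with medians of 0.01 and 0.00. This set was thus mostly lower without a pituitary, and more of its genes passed the test in females than in males, a difference that is tested further on.

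After 1 injection the counts of the set, 2 genes higher and 3 lower, were near the background of 8.44% and 7.55% of all probes, and its median was 0.04. After 2 injections, 2 were called higher and 10 lower, beside 15.7% and 16.6% of all probes, with a median of -0.34. Set against the intact male through the shared hypophysectomised male RNA, 2 injections left 1 gene called higher and 16 lower, beside 15.5% and 15.5% of all probes, with a median of -0.95. The same indirect ratio for 1 injection had 0 higher and 10 lower, beside 11.4% and 10.3%, with a median of -0.48. The comparisons share the hypophysectomised male RNA, so that these counts are not independent of one another.

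**Figure D1:**
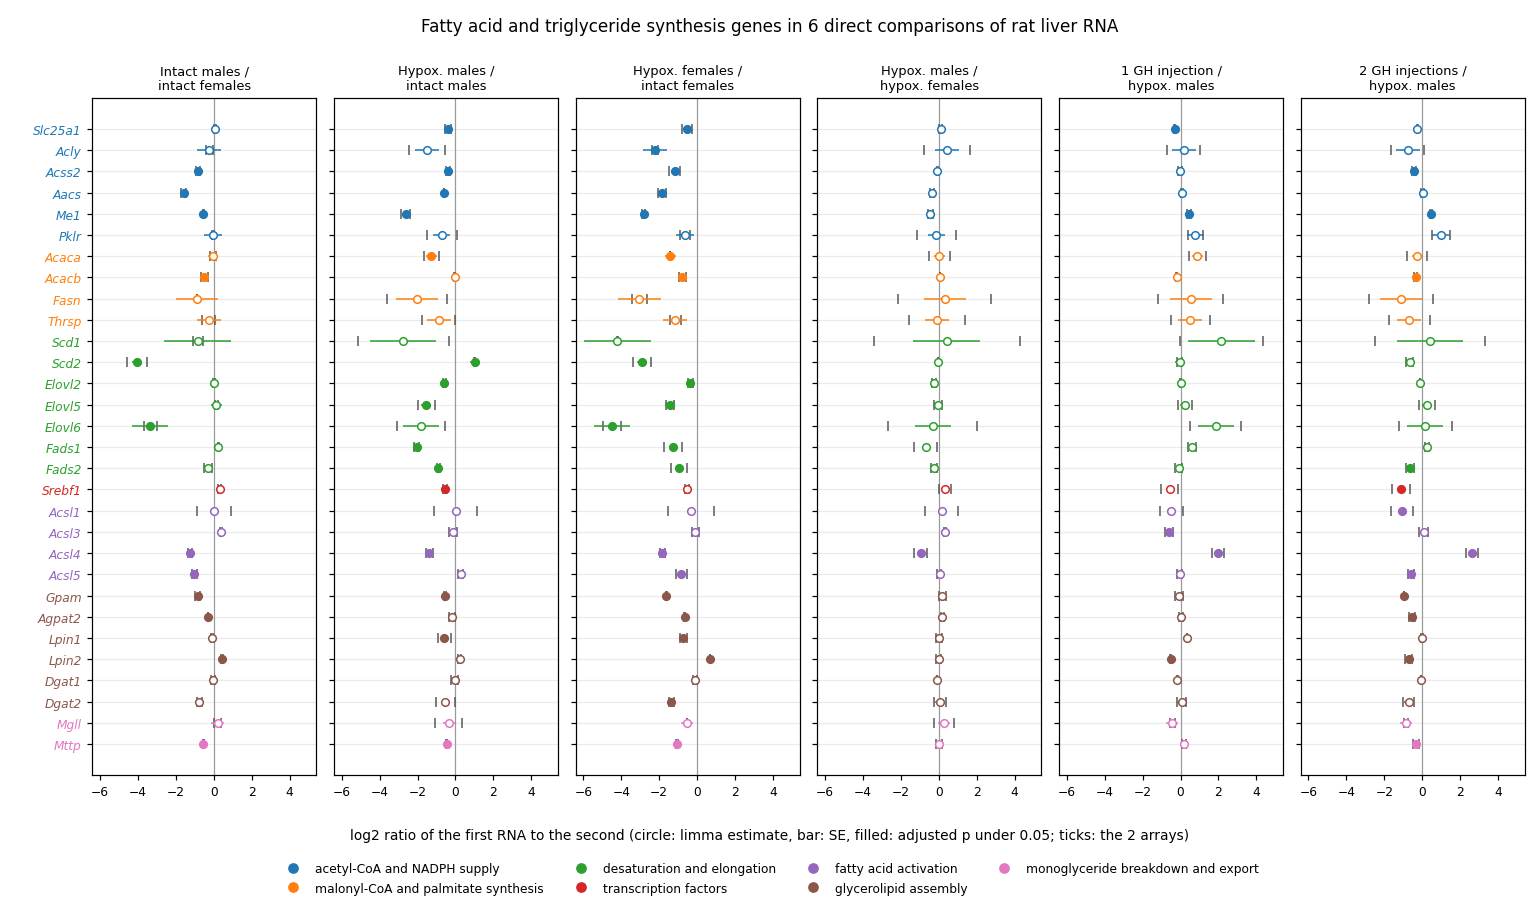
Log2 ratios of the 30 genes (rows, coloured by role) in the 6 direct comparisons (panels). Circles are limma estimates with SE bars, filled where the adjusted p was under 0.05, and ticks are the 2 arrays. Most filled circles lie left of 0 in the comparison of hypophysectomised with intact females, and the ticks of Scd1, Fasn and Elovl6 lie far apart wherever hypophysectomised male RNA is one of the pair.

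These counts and medians depended on single arrays and on the normalization. The comparisons of intact animals, of hypophysectomy in males and in females, and of 2 injections were refitted with either array left out. Calls over all probes fell in all 4. Calls of the set fell too, except after hypophysectomy of males without the second array, where they rose. The medians of the set in these 4 comparisons were -0.31, -0.03, -0.85 and -0.59 without the first array and -0.02, -0.96, -1.47 and -0.09 without the second. The median after hypophysectomy of males was thus near 0 on the second array alone, and those of intact males and of 2 injections were near 0 on the first alone. Centring each array on its median in place of loess left 2, 1, 4 and 0 genes called in the same 4 comparisons, with medians of -0.53, -0.36, -1.12 and -0.73. Calls over all probes fell with them, to 323, 472, 504 and 154 under median centring, against 4373, 10283, 9329 and 9169 with loess. For 1 injection, leaving out either array lowered the calls of the set and over all probes. Median centring left 0 called in the set and 17 over all probes, against 4213 with loess.

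Among the enzymes that supply acetyl-CoA and NADPH, malic enzyme Me1, which makes cytosolic NADPH, had the clearest loss. Its ratio was -2.39 and -2.86 on the 2 arrays of hypophysectomised over intact males and -2.74 and -2.90 on those of females. Me1 therefore fell 6.17-fold in males (-2.63 ± 0.11, adjusted p = 1.43e-06) and 7.06-fold in females (-2.82 ± 0.11, adjusted p = 8.84e-07). All 4 arrays lay far below 0. GH raised Me1 only slightly, with 0.34 and 0.57 on the arrays with 1 injection (0.45 ± 0.11, adjusted p = 0.0294) and 0.40 and 0.53 on those with 2 (0.46 ± 0.11, adjusted p = 0.0133). After 2 injections Me1 was still 4.48-fold lower than in intact males (-2.16 ± 0.16). A second Me1 probe gave -2.67 ± 0.09 in males and -2.88 ± 0.09 in females. For GH it gave 0.77 ± 0.09 after 1 injection and 0.13 ± 0.09, not called, after 2, so that the probes differed after 2 injections.

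The acetoacetyl-CoA synthetase Aacs, which feeds ketone bodies into lipid synthesis, was sex-dependent. It had -1.46 and -1.72 on the arrays of intact males over intact females, a lower level in males (-1.59 ± 0.07, adjusted p = 2.11e-06). Loss of the pituitary took it down by -0.60 and -0.63 in males and by -2.05 and -1.62 in females. The arrays of the sexes do not overlap. Aacs was not called after GH, with 0.09 ± 0.07 after 1 injection and 0.03 ± 0.07 after 2. Acetyl-CoA synthetase Acss2 followed the same order at a smaller size, lower in intact males (-0.83 ± 0.13) and fallen in both sexes after hypophysectomy (-0.41 ± 0.13 in males, -1.19 ± 0.13 in females). It also fell after 2 injections (-0.45 ± 0.13, adjusted p = 0.0258).

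The mitochondrial citrate carrier Slc25a1 had small losses in both sexes, of -0.39 ± 0.09 in males and -0.53 ± 0.09 in females, and a ratio of -0.30 ± 0.09 after 1 injection (adjusted p = 0.0471). ATP citrate lyase Acly, which splits the exported citrate, was called in females only, with -2.04 and -2.40 on the arrays (-2.22 ± 0.63, adjusted p = 0.0231). In males its arrays read -2.45 and -0.53, and the fit did not call it (-1.49 ± 0.63, adjusted p = 0.092). Pyruvate kinase Pklr, the last step of glycolysis, was called nowhere, with arrays of -1.52 and 0.07 in hypophysectomised over intact males. In all, of the 6 supply genes, 3 were lower in intact males, beside 8.25% of all probes. After hypophysectomy 4 fell in males and 5 in females, beside 19.5% of all probes called lower in each sex.

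The acetyl-CoA carboxylase Acaca, which commits acetyl-CoA to fatty acid synthesis, fell in both sexes. Its arrays read -1.65 and -0.89 in males (-1.27 ± 0.28, adjusted p = 0.0078) and -1.42 and -1.41 in females (-1.42 ± 0.28, adjusted p = 0.00484). Every array lay below 0, with the wider gap in males. After GH it was not called, at 0.88 ± 0.28 for 1 injection and -0.28 ± 0.28 for 2. A much dimmer Acaca probe had -0.32 ± 0.07 in males and -0.41 ± 0.07 in females, the same directions at a smaller size. Acacb, the isoform at the mitochondrial surface whose malonyl-CoA restrains fatty acid oxidation, was lower in intact males (-0.69 and -0.31 on the arrays, -0.50 ± 0.10) and fell in females (-0.96 and -0.59, -0.78 ± 0.10). In males its arrays read -0.03 and -0.06 (-0.04 ± 0.10).

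Fatty acid synthase Fasn, which builds palmitate, had large ratios that no comparison called. In hypophysectomised females its arrays read -2.66 and -3.43, both far below 0 (-3.05 ± 1.12, adjusted p = 0.0621). In males they read -3.60 and -0.45 (-2.03 ± 1.12, adjusted p = 0.186). Thrsp, the thyroid hormone responsive lipogenic protein known as Spot 14, read -0.86 and -1.45 in females and -1.74 and -0.01 in males. The fit takes 1 spread per gene over all 12 arrays, and the arrays of these genes differed widely in other comparisons. A second Fasn probe, dimmer, had -2.69 ± 0.89 in females, which was called.

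Of the stearoyl-CoA desaturases, which place the first double bond of monounsaturated fat, Scd2 had the larger number of calls. It was 16.3-fold lower in intact males, with arrays of -3.50 and -4.56 (-4.03 ± 0.26). In hypophysectomised over intact males its arrays read 0.99 and 1.03, so that it rose (1.01 ± 0.26, adjusted p = 0.0143), while in females they read -2.45 and -3.40 and it fell (-2.93 ± 0.26). Between hypophysectomised males and females the arrays read -0.03 and -0.02. On this probe hypophysectomy thus went with opposite signs in the sexes, and the ratio between them was near 0 afterwards. The 2 dimmer Scd2 probes had ratios of -1.64 ± 0.17 and -0.64 ± 0.51 between intact males and females, and neither was called in hypophysectomised males (-0.20 ± 0.17 and -0.94 ± 0.51). With the 3 probes averaged the male ratio became -0.04. Cross-hybridisation between the probes of the related desaturase genes was not tested.

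Scd1 had its arrays at -4.23 and -4.19 in hypophysectomised over intact females, close to each other and far below 0 (-4.21 ± 1.76, adjusted p = 0.0914). Males read -5.15 and -0.36 (-2.76 ± 1.76, adjusted p = 0.246). Intact males over intact females read -1.12 and -0.58. Whether Scd1 fell in males thus differed between the arrays.

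Elovl6, the elongase that takes palmitate to stearate, was 10.2-fold lower in intact males, with arrays of -3.69 and -3.00 (-3.35 ± 0.95, adjusted p = 0.0435). In hypophysectomised females it fell 22.4-fold, with arrays of -4.03 and -4.94 (-4.49 ± 0.95, adjusted p = 0.00627). The male arrays read -3.08 and -0.54 and were not called. Elovl5, which lengthens polyunsaturated chains, fell in both sexes (-1.54 ± 0.27 in males, -1.43 ± 0.27 in females). Elovl2, which acts on longer polyunsaturated chains, fell less (-0.58 ± 0.08 and -0.36 ± 0.08).

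The delta-5 desaturase Fads1 and the delta-6 desaturase Fads2, which make long polyunsaturated fatty acids, were not called between intact males and females (0.23 ± 0.22 and -0.30 ± 0.20). Fads1 had -1.91 and -2.17 on the arrays of hypophysectomised over intact males (-2.04 ± 0.22, adjusted p = 0.000199). In females it had -1.73 and -0.81 (-1.27 ± 0.22). All 4 arrays lay below 0, with the female ones nearer to it. Fads2 fell in both sexes (-0.90 ± 0.20 in males, -0.96 ± 0.20 in females) and fell again after 2 injections (-0.63 ± 0.20, adjusted p = 0.0439).

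Srebf1, which encodes SREBP-1, the main activator of lipogenic genes, was not called between intact males and females (0.31 ± 0.18). It fell in hypophysectomised males, with -0.68 and -0.46 on the arrays (-0.57 ± 0.18, adjusted p = 0.0341), and had -0.41 and -0.62 in females (-0.51 ± 0.18, adjusted p = 0.0518). After 2 injections its arrays read -0.64 and -1.57, and it fell (-1.10 ± 0.18, adjusted p = 0.00159). Its 2 other probes disagreed there, at -1.07 ± 0.18, called, and -0.01 ± 0.08, not called. After hypophysectomy of males they had -0.41 ± 0.18, not called, and -0.29 ± 0.08, called. Against intact males it was then 3.19-fold lower (-1.68 ± 0.25). Mlxipl, the gene of ChREBP, which answers to carbohydrate, was matched by accession. It fell in hypophysectomised males (-1.77 and -1.16 on the arrays, -1.46 ± 0.14) and females (-1.63 and -1.24, -1.44 ± 0.14). GH given once raised it, with 0.66 and 0.61 on the arrays (0.64 ± 0.14, adjusted p = 0.0186), and after 2 injections it had 0.38 ± 0.14 (adjusted p = 0.0773).

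Of the long-chain acyl-CoA synthetases, Acsl4, which prefers arachidonate, had the largest GH response called in the set. On the arrays with 1 injection it read 2.28 and 1.66, a 3.93-fold rise (1.97 ± 0.18, adjusted p = 0.000304). With 2 injections the arrays read 2.92 and 2.31, a 6.11-fold rise (2.61 ± 0.18, adjusted p = 1.71e-05). All 4 arrays lay far above 0, and Acsl4 was then 2.37-fold higher than in intact males (1.24 ± 0.26, adjusted p = 0.00734). It was also lower in intact males (-1.25 ± 0.18) and fell after hypophysectomy of males (-1.37 ± 0.18) and females (-1.83 ± 0.18). Hypophysectomised males over hypophysectomised females read -1.30 and -0.62, the only call of the set in that comparison (-0.96 ± 0.18, adjusted p = 0.0479). That call was lost with the dye term left out and with a replicate block, and the second Acsl4 probe, dimmer, had -0.68 ± 0.14 there and was not called. The other Acsl4 ratios were called by both probes.

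Acsl1, the main hepatic synthetase for triglyceride, was called after 2 injections (-1.64 and -0.46 on the arrays, -1.05 ± 0.21, adjusted p = 0.00441), and all 4 of its probes fell there, by ratios of -0.56 to -1.05. Its arrays differed with the dye in every comparison, such as 0.93 and -0.91 in intact males over intact females, and its dye coefficient was 0.89 ± 0.08. Acsl5 was lower in intact males (-1.16 and -0.91, -1.03 ± 0.14) and fell in hypophysectomised females (-1.13 and -0.56, -0.84 ± 0.14) but had 0.16 and 0.39 in males (0.28 ± 0.14, not called). It fell after 2 injections (-0.60 ± 0.14). Acsl3 was called only after 1 injection (-0.38 and -0.82, -0.60 ± 0.16, adjusted p = 0.0331).

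Glycerolipid assembly begins with the mitochondrial acyltransferase Gpam, which was lower in intact males (-0.98 and -0.70 on the arrays, -0.84 ± 0.09). It had -0.50 and -0.59 in hypophysectomised over intact males (-0.54 ± 0.09, adjusted p = 0.00146) and -1.66 and -1.60 in females (-1.63 ± 0.09, adjusted p = 4.26e-06). The female arrays lay well below the male ones. After 1 injection Gpam read 0.13 and -0.28 and was not called, while after 2 injections it read -0.96 and -0.94 (-0.95 ± 0.09, adjusted p = 6.51e-05). That made Gpam 2.81-fold lower than in intact males. Agpat2, the next acyltransferase, was lower in the same comparisons at smaller size, except in hypophysectomised males, where it was not called. It had -0.32 ± 0.09 in intact males over intact females, -0.65 ± 0.09 in hypophysectomised females and -0.53 ± 0.09 after 2 injections.

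The lipins, phosphatidate phosphatases that also act as coregulators, went separate ways. Lpin1 fell in males (-0.93 and -0.24 on the arrays, -0.59 ± 0.15) and females (-0.92 and -0.55, -0.74 ± 0.15). Lpin2 was the one gene of the set higher in intact males (0.40 and 0.51, 0.45 ± 0.09, adjusted p = 0.00754) and the one that rose in hypophysectomised females (0.67 and 0.67, 0.67 ± 0.09, adjusted p = 0.000495). GH took it down, with -0.56 and -0.48 after 1 injection (-0.52 ± 0.09) and -0.89 and -0.55 after 2 (-0.72 ± 0.09). Lpin2 thus ran opposite to most of the set in its sex bias and its response to hypophysectomy.

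Of the diacylglycerol acyltransferases, which make triglyceride, Dgat2 fell in females (-1.51 and -1.22 on the arrays, -1.36 ± 0.25, adjusted p = 0.00333) and read -1.04 and -0.03 in males (-0.53 ± 0.25, not called). Its other probes gave -1.38 ± 0.23 and -1.12 ± 0.20 in females. Dgat1 was called in no comparison, with ratios of -0.16 to -0.04. Monoglyceride lipase Mgll, which splits the last acyl chain from glycerol, was not called in any either. The microsomal transfer protein Mttp, which loads triglyceride onto lipoprotein, was lower in intact males (-0.58 and -0.52, -0.55 ± 0.07) and fell after hypophysectomy of males (-0.48 and -0.44, -0.46 ± 0.07) and females (-1.0 and -1.11, -1.06 ± 0.07). It fell after 2 injections as well (-0.32 ± 0.07, adjusted p = 0.00612), and its second probe gave calls in the same directions in all 4 of these comparisons.

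The response to hypophysectomy was then compared between the sexes by the difference of their ratios, taken as the mean of the 2 direct estimates that the loop gives. For 8 of 30 genes the difference was called above 0, beside 7.36% of all probes, and for 2 below 0, beside 7.78%, with a median of 0.23 in the set and 0.01 over all probes. Of the genes called, Scd2 differed most, by 3.97 ± 0.26 (adjusted p = 2.49e-05). It was followed by Aacs (1.23 ± 0.07), Acsl5 (1.09 ± 0.14), Gpam (1.06 ± 0.09), Acss2 (0.77 ± 0.13), Acacb (0.64 ± 0.10), Mttp (0.58 ± 0.07) and Agpat2 (0.49 ± 0.09). All 8 had a lower level in intact males and a lower ratio in the hypophysectomised female. Fads1 (-0.85 ± 0.22, adjusted p = 0.0346) and Lpin2 (-0.45 ± 0.09, adjusted p = 0.009) differed the other way. Elovl6 had 2.85 ± 0.95 and missed the threshold (adjusted p = 0.0816), while its dimmer probe was called at 2.44 ± 0.38. Dgat2 had 0.82 ± 0.25 (adjusted p = 0.0634), and its 2 dimmer probes were called at 0.88 ± 0.23 and 0.74 ± 0.20.

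For Me1 the 95% interval of the difference spanned 0 (0.15 ± 0.11, interval -0.11 to 0.41), and its second probe had 0.30 ± 0.09 (adjusted p = 0.06). It also spanned 0 for Mlxipl (-0.07 ± 0.14, interval -0.40 to 0.26) and Elovl5 (-0.15 ± 0.27, interval -0.76 to 0.47). For Scd1 the interval of the difference was -2.64 to 5.37, too wide to place it. The contrast uses the intact male to female ratio as one of its terms, so that a sex bias of the intact animals and this difference are not separate findings. Median centring gave 2 calls where the fit had 10. Leaving out either array left 1 residual degree of freedom, too few to count calls. The median of the set was 0.55 without the first arrays and 0.07 without the second.

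**Figure D2:**
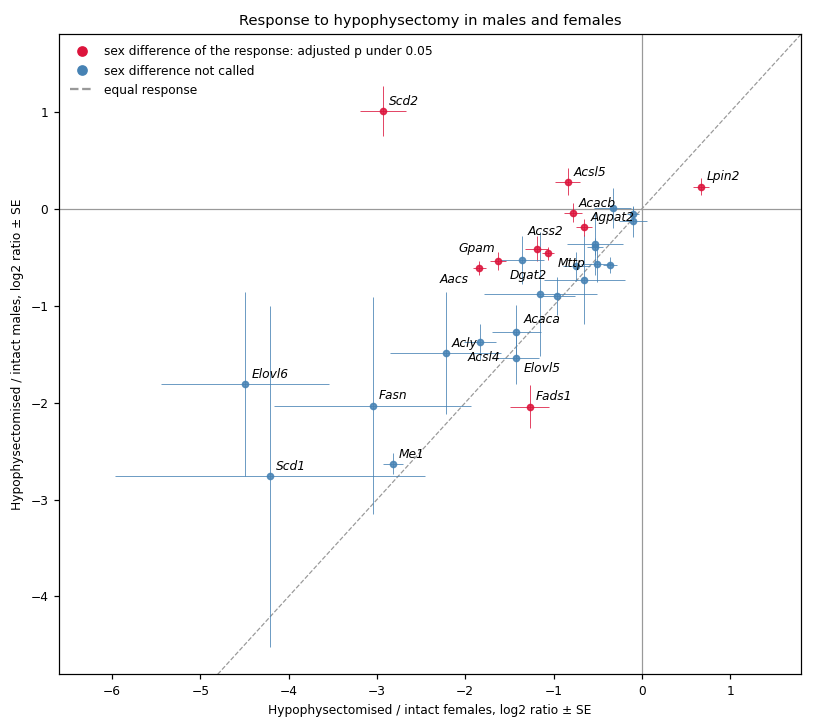
Log2 ratio of hypophysectomised over intact rats in males (vertical axis) against females (horizontal axis) for the 30 genes, with SE bars, n = 2 arrays per sex. Genes whose sex difference was called are red, and the dashed line marks equal responses. Scd2 stands alone with a ratio of 1.01 in males and -2.93 in females, and Me1 lies near the line.

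The step from 1 to 2 injections was read through the hypophysectomised male RNA on the other side of each pair. No gene was called higher with 2 injections, beside 6.31% of all probes, and 3 were called lower, beside 5.62%, with a median of -0.48 in the set and -0.01 over all probes. The 3 were Gpam (-0.88 ± 0.12, adjusted p = 0.00325), Mttp (-0.52 ± 0.10, adjusted p = 0.0106) and Agpat2 (-0.55 ± 0.13, adjusted p = 0.0296), all in glycerolipid assembly and export. The second probe of the NADPH supply gene Me1 was also called lower (-0.63 ± 0.13, adjusted p = 0.0149), while its brightest probe had 0.01 ± 0.16. The 1-injection pool joins 3 times after GH, and the time after the second injection is not stated for the other, so that injection number and time cannot be told apart. Leaving out the first or the second arrays lowered the calls, in the set and over all probes. Acsl4 had a further ratio of 0.64 ± 0.26 (adjusted p = 0.164).

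Several genes of the set differed widely between the 2 arrays of a comparison. Scd1 is the clearest case. On arrays of the first and second replicate number its ratios were -5.15 and -0.36 for hypophysectomised over intact males, and -3.44 and 4.28 for hypophysectomised males over hypophysectomised females. With 1 injection over hypophysectomised males they were 4.36 and -0.04, and with 2 injections 3.32 and -2.49. In the 2 comparisons that hold no hypophysectomised male RNA the arrays lay within 0.54 of each other. Relative to the RNA it was paired with, hypophysectomised male RNA was thus lower in Scd1 on all 4 arrays of replicate number 1 than on the matching arrays of number 2. Its Scd1 level, as log2 intensity, ran between 10.03 and 15.97 over 8 arrays, against 15.83 to 16.12 over the 4 arrays of intact males. The single pool with 1 injection had 15.64 and 15.86 on its arrays, and that with 2 had 13.35 and 13.48.

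The same pattern ran through Fasn, Elovl6, Thrsp and Acly. For Fasn, hypophysectomised males over hypophysectomised females read -2.13 and 2.77, and 2 injections over hypophysectomised males read 0.55 and -2.78. Elovl6 read -2.66 and 2.02 in the first of these comparisons, Thrsp -1.56 and 1.40, and Acly -0.79 and 1.67. In all 4 comparisons that hold hypophysectomised male RNA, these 5 of 30 genes were lower in that RNA by more than 1 on the first array than on the second, which held for 0.231% of 28965 probes. The threshold of 1 was chosen after the values were seen. None of the 30 had the opposite pattern, beside 0.0690% of probes. On array 1 that RNA carried Alexa 555 in the comparison with intact males and Alexa 647 in the other 3, so that the shift had the same direction under both dyes.

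A term for this difference, acting on the arrays of the 4 comparisons, was added to the fit over all 12 arrays. It put the hypophysectomised male RNA of replicate number 1 below that of number 2 by a log2 difference of -5.46 ± 0.43 for Scd1, -3.51 ± 0.25 for Fasn and -2.89 ± 0.30 for Elovl6. Thrsp had -1.99 ± 0.15, Acly -1.96 ± 0.15, Pklr -1.32 ± 0.21, Mgll -0.93 ± 0.15 and Acaca -0.88 ± 0.07. Others of the set scarcely differed, among them Aacs (0.02 ± 0.08), Acacb (0.02 ± 0.11), Gpam (-0.09 ± 0.09) and Scd2 (-0.16 ± 0.26), and Me1 ran slightly the other way (0.32 ± 0.06). Dgat2 (-0.79 ± 0.06) and Srebf1 (-0.54 ± 0.07) lay between these. Scd1 had the largest residual SD of all 29007 probes tested (3.24). Over the set 8 of 30 genes had a residual SD above 0.5, against 1.34% of all probes, and the median residual SD was 0.33 in the set and 0.10 over all probes.

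**Figure D3:**
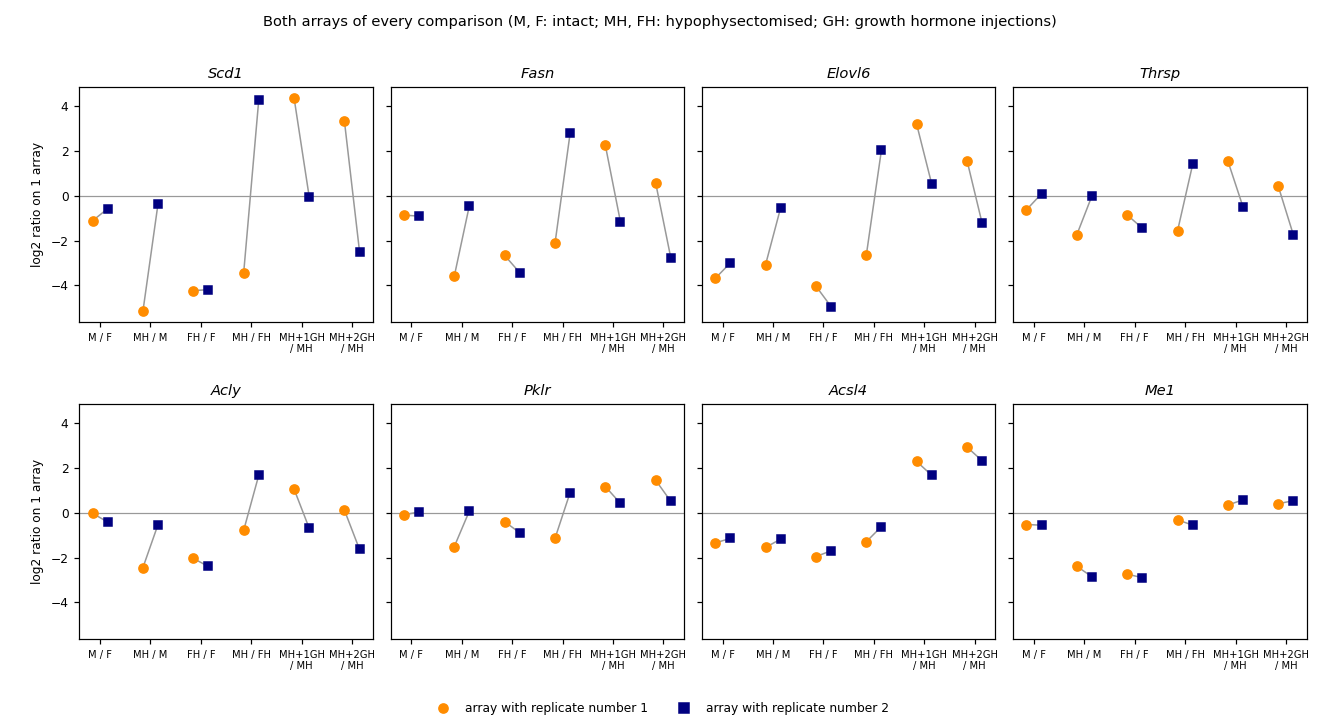
Log2 ratio on each of the 2 arrays (orange circle: replicate number 1, blue square: number 2) of the 6 comparisons for 8 genes, each joined by a grey line. Scd1, Fasn, Elovl6, Thrsp and Acly swing between the arrays in the 4 comparisons with hypophysectomised male RNA (MH), while Acsl4 and Me1 keep their sign on both.

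Markers of exocrine pancreas moved with this difference. Of 12 such markers on the array, 6 to 7 were well above background in the 4 channels of hypophysectomised male RNA of replicate number 1 and 12 in those of number 2. In the GH channels of the same arrays, which held 1 pool per treatment, 7 were above background on the first and 12 on the second. The summed level in hypophysectomised male RNA, as linear normalised intensity, was 46900 to 56400 in the 4 channels of replicate number 1 and 75400 to 87400 in those of number 2. The GH-treated males had sums of 36300 to 50300, hypophysectomised females 40900 to 48900, intact males 66600 to 76800 and intact females 64800 to 74200. Of the 12 markers, 6 to 11 were above background in intact males, 7 to 8 in intact females and 8 to 12 in hypophysectomised females. A sum of linear levels weighs the brightest markers most, so it need not follow the number above background. The trypsinogen Prss1 differed by -4.76 ± 0.30 between replicate numbers 1 and 2 of the hypophysectomised male RNA, the chymotrypsinogen Ctrb by -3.06 ± 0.12 and the amylase Amy2 by -0.19 ± 0.07. Of 6 adipocyte markers, 2 were above background in hypophysectomised male RNA of replicate number 1 and 3 to 4 in that of number 2, with sums of 7170 to 7670 and 6560 to 7660. Leptin Lep and perilipin Plin were not well above background on any array. Adipoq differed by -1.32 ± 0.60 and Fabp4 by -0.75 ± 0.47, and both also differed between the arrays of the 2 comparisons with intact females, by -2.06 and -2.61 for Adipoq and by -1.78 and -1.96 for Fabp4. The part of pancreas or fat RNA in the differences of lipogenic genes was not tested.

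**Figure D4:**
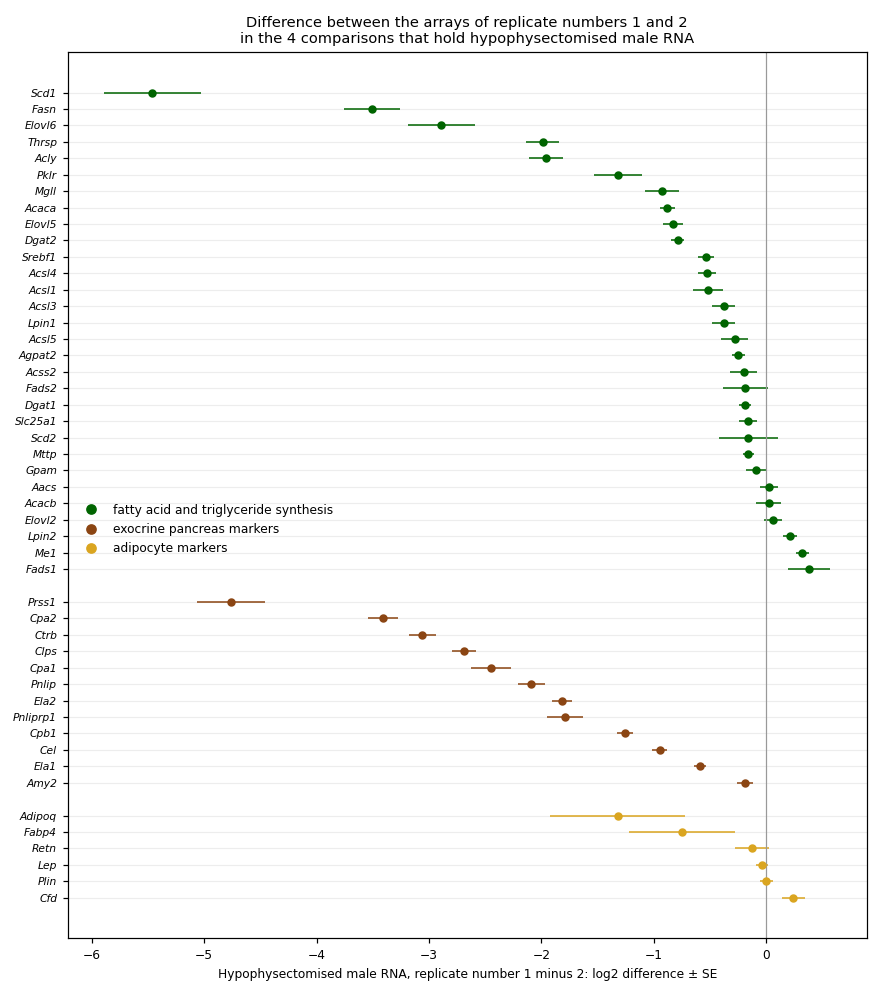
Log2 difference between replicate numbers 1 and 2 of hypophysectomised male RNA, with SE, from a limma fit with a term for it (8 arrays hold this RNA). Green are the 30 genes of the set, brown 12 markers of exocrine pancreas and yellow 6 of adipocytes. Scd1 lies at -5.46 and Prss1 at -4.76, while Aacs and Gpam lie near 0.

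Promoter windows were read for the genes of the set. RefSeq windows (build GRCr8, 250 bases before to 50 after the start) were matched for 24 of the 30 genes, and for 3 of the 5 genes that shifted between the arrays. Those of Acly, Thrsp and Scd, which shifted, and of Scd2, which differed by -0.16 ± 0.26, are shown. They lie at chr10:85963582-85963881 (minus strand), chr1:161138915-161139214 (minus strand), chr1:253231682-253231981 (minus strand) and chr1:253118127-253118426 (plus strand). Capitals mark matches to CCAAT, the motif of the factor NF-Y, or to its reverse complement ATTGG.
Acly: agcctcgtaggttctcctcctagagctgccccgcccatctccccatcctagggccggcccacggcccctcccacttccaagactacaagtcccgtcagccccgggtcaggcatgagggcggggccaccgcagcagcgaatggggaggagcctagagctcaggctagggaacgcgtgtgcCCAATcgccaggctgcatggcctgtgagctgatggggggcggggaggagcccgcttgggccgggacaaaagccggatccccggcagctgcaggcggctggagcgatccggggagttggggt
Thrsp: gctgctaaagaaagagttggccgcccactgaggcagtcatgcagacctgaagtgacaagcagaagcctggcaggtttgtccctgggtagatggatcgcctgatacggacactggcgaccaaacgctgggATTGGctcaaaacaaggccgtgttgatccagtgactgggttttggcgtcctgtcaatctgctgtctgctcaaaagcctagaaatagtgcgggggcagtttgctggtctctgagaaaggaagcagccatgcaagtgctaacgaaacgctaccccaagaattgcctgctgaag
Scd: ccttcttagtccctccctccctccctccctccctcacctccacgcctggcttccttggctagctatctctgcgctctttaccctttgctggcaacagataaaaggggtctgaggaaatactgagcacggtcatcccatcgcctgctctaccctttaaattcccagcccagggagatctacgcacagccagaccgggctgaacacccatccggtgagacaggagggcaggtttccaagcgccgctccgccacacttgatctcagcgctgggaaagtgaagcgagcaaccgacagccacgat
Scd2: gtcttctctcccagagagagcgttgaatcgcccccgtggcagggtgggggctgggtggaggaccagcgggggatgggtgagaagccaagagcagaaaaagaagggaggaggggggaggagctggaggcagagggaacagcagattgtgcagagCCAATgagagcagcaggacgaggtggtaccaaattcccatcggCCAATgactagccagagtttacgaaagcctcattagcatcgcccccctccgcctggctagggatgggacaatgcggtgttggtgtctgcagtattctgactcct

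Acly has CCAAT at -71 to -67 from the start, Thrsp its reverse complement at -121 to -117, Scd2 CCAAT at -97 to -93 and at -54 to -50, and Scd no match in this window. On either strand CCAAT was in 58.3% of the 24 windows and in 37.5% of all 33469. The E-box CACGTG, the same on both strands, was in 2 of the 24 (8.33%), Elovl5 and Mgll, and in 6.42% of all. The sterol element core TCACNCCAC was in 0 of the 24 and in 1.12% of all, and the STAT5 motif TTCNNNGAA, also the same on both strands, was in 0 and in 8.87%. No 2 matches in these 24 windows overlapped. A missing match says only that these letters are not in this window. A single window was read per gene, and any other start of a gene was not read. Of the windows shown, those of Acly and Scd lie inside the annotated genes, whose upstream ends are at 85964605 and 253232101.

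Genes next to the pathway were counted from the other lists. Their counts after hypophysectomy stand beside 20.1% called higher and 19.5% called lower of all probes in males, and 18.9% and 19.5% in females. Of 22 tested genes of glucose entry and NADPH supply, 1 rose and 8 fell in hypophysectomised males and 1 rose and 11 fell in females. The bifunctional enzyme Pfkfb1, which sets the level of the glycolytic activator fructose bisphosphate, fell by the same amount in both (-2.82 ± 0.30 each), with all 4 arrays between -3.14 and -2.49. The pentose phosphate enzyme G6pdx fell more in females (-1.70 ± 0.11) than in males (-0.88 ± 0.11), a difference of 0.81 ± 0.11 that was called. After 2 injections 2 of the 22 rose and 6 fell, beside 15.7% and 16.6% of all probes. Among those that fell was the NADPH-making Idh1 (-0.82 ± 0.07).

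Of 18 tested genes of fatty acid uptake and lipoprotein handling, 3 rose and 7 fell in hypophysectomised males and 2 rose and 9 fell in females. The fatty acid transporter Cd36 had a pattern like that of Scd2, lower in intact males (-2.84 and -2.78 on the arrays, -2.81 ± 0.12), risen in hypophysectomised males (1.44 ± 0.12) and fallen in females (-0.80 ± 0.12). It was the 1 gene of its list called between hypophysectomised males and females (-0.72 ± 0.12, adjusted p = 0.0297). The cytosolic fatty acid binding protein Fabp5 fell in males (-2.43 ± 0.22) and females (-3.32 ± 0.22), and the liver form Fabp1 fell in both as well (-1.51 ± 0.23 and -1.80 ± 0.23).

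Among 28 tested control genes, 8 rose and 6 fell in hypophysectomised males and 6 rose and 4 fell in females, shares not far from those over all probes. The nuclear receptor Pparg, which promotes fat storage, rose in males (2.04 and 1.82 on the arrays, 1.93 ± 0.10) and females (2.25 and 2.37, 2.31 ± 0.10). GH took it down, by -1.03 ± 0.10 after 1 injection and by -1.02 ± 0.10 after 2. Insig1, which holds SREBP in the endoplasmic reticulum, fell in males (-1.06 ± 0.32) and females (-2.29 ± 0.32), and the deiodinase Dio1, which activates thyroid hormone, fell in males (-2.42 ± 0.08) and females (-1.30 ± 0.08). After 2 injections the hormone Fgf21 (2.79 ± 0.47) and the pseudokinase Trib3 (2.32 ± 0.25) rose. Of 7 tested lipid droplet genes, Cidea, which enlarges droplets, rose in males (1.66 ± 0.14) and females (1.21 ± 0.14) and fell after 1 and 2 injections (-0.57 ± 0.14 each). Of 17 tested other acyl-chain and acyltransferase genes, 0 rose and 4 fell in males and 0 rose and 3 fell in females, the falls being near the share over all probes.

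Markers of other liver cells moved with some comparisons too. Over all probes, 8.76% were called higher and 8.25% lower in intact males, 8.44% and 7.55% after 1 injection, and 15.7% and 16.6% after 2. After hypophysectomy the shares were 20.1% and 19.5% in males and 18.9% and 19.5% in females. Of 7 tested macrophage markers, 7 were lower in intact males than in intact females and 7 higher after 1 injection, with medians of -0.28 and 0.26. Endothelial markers rose for 5 of 7 in hypophysectomised males and for 5 of 7 in females, with medians of 0.22 and 0.26. Erythroid markers fell for 3 of 3 in both sexes, Hbb by -3.69 ± 0.23 in males. Of 6 tested stellate cell markers 2 rose and 3 fell in hypophysectomised males, of 4 bile duct markers 2 rose in each sex, and of 8 lymphocyte markers 4 rose in males and 3 in females. Of the hepatocyte markers, 1 rose and 2 fell among 6 tested in males, and 3 rose among 10 in females. Of 8 tested pancreas markers, 2 were higher and 1 lower in intact males, and 1 rose and 3 fell in hypophysectomised females, where the carboxypeptidase Cpa1 had -4.15 ± 0.78. Cpa1 was also lower in intact males (-3.93 ± 0.78). In hypophysectomised males 1 of 6 tested pancreas markers rose and 1 fell, and after each GH treatment 1 of 7 fell. The adipocyte marker Cfd was lower in intact males (-0.43 ± 0.12) and rose in hypophysectomised males (0.35 ± 0.12), the only calls of that list. Their part in the results for the lipogenic genes was not tested.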

How the data were processed

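Liver RNA was compared on 12 two-colour Agilent arrays, whose small number limits precision. The scanner output deposited by the authors holds spot intensity per dye, flags of spot quality and a log10 ratio of red over green, made with Agilent Feature Extraction 9.1.3.1 per the file headers. The value table deposited by the authors holds log2 ratios, which matched the processed signals of channel 2 over channel 1. Its centring steps are not given in the sources used here.

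Mean intensities were background-corrected by normexp (offset 50) and loess-normalised within each array, with control and outlier spots left out. Spots of a probe were averaged, and ratios were turned to channel 2 over channel 1. Ratios were fitted with limma 3.58.1 in R 4.3.3 (lmFit and eBayes, 6 comparisons and a dye coefficient, 5 residual df). The p-values were adjusted by Benjamini-Hochberg over all probes with at least 1 RNA well above background on both arrays. The other 4 contrasts came from the same fit, and the fit was tested on simulated data. The p-values rest on 1 spread per probe over all 12 arrays, which mixes differences between pools and between hybridisations. GH-treated RNA had 1 pool per treatment, so that no p-value measures a spread between GH-treated pools. The pools of hypophysectomised males were on 8 arrays, which the fit treats as separate.

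The genes, lists and markers were chosen with earlier results of these data known. Every gene of the set is accounted for, and from each other list up to 3 called genes per comparison, the largest with the same direction on both arrays, could be named. Dgat1, Mgll and the pancreas and adipocyte markers of the array difference fall outside that rule for called genes, as do a few second values of named genes. Promoter windows came from RefSeq.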

Additional observations from a re-analysis of the deposited data

Results flagged for a closer look

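For 10 of 30 genes of the set, beside 15.1% of all probes, the response to hypophysectomy differed between males and females. The test was of the difference itself (limma, adjusted p under 0.05). One of its terms is the intact male to female ratio, so a sex bias of intact animals is not a separate finding. Median centring left 2 genes called, with calls over all probes at 143 against 3609. The log2 response of males minus that of females was 3.97 for Scd2, 1.23 for Aacs, 1.09 for Acsl5, 1.06 for Gpam and 0.77 for Acss2. It was 0.64 for Acacb, 0.58 for Mttp and 0.49 for Agpat2, and it was -0.85 for Fads1 and -0.45 for Lpin2. The 2 dimmer Scd2 probes gave 1.30, called, and 1.05, not called.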

How the results depend on the processing

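Counts below are genes of the set called, of 30. Centring each array on its median in place of loess put the median of all probes between -0.13 and 0.10 and left 2 genes between intact males and females, 1 and 4 after hypophysectomy of males and females, 2 for the sex difference and 0 in the other 6 comparisons. The single call between hypophysectomised males and females became 0 without background correction, with the deposited processed signals or value table, without the dye coefficient, with all probes tested, with the arrays of the comparison alone and with a replicate block, and 3 with the loop model. For 1 injection over hypophysectomised males, 5 became 2 with the processed signals, the value table or its own arrays alone, 3 with all probes tested or the replicate block, and 1 without the array whose label leaves the hormone out. That array's removal left 1 for 2 injections minus 1. Against intact males, 1 injection had 6 with the processed signals or value table and 4 with its own arrays alone, 2 injections had 9 with theirs, and 2 injections minus 1 had 0.

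Leaving out 1 replicate gave 5 to 7 for intact males over females, 8 to 23 and 10 to 19 after hypophysectomy of males and females, 0 to 0 between hypophysectomised animals, 1 to 1 and 3 to 8 after 1 and 2 injections, 0 to 1 for 2 minus 1, and 10 to 11 and 1 to 3 for 2 and 1 injections over intact males. The sex difference had 25 to 25, with 1 residual df that came from GH arrays. Its direction changed for 9 genes not called with all arrays, as it ran from -0.58 to 1.98 for Acly, -0.27 to 0.5 for Acaca, -1.1 to 3.33 for Fasn, -0.91 to 1.37 for Thrsp, -1.62 to 4.35 for Scd1, -0.6 to 0.84 for Mgll, -1.09 to 0.91 for Pklr, -0.3 to 0.43 for Fads2 and -0.24 to 0.2 for Srebf1. Scd2 in hypophysectomised over intact males became -0.04 as a mean over its probes.

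With hypophysectomised male RNA split by replicate number, chosen after seeing the data, the array difference left the error: 24 genes were called after hypophysectomy of males, 5 between hypophysectomised animals, 17 and 21 after 1 and 2 injections, 17 for the sex difference, 15 for 2 minus 1 and 19 for 1 injection over intact males. Calls over all probes rose too, to 13365, 2076, 7951 and 11835 in the first 4 of these, against 10283, 364, 4213 and 9169. In the sex difference, 2 minus 1 and 1 injection over intact males they rose to 6512, 6326 and 9140, against 3609, 3123 and 5467. Correlations of residuals between comparisons ran from -0.68 to 0.86. They were 0.86 and 0.74 for pairs with hypophysectomised male RNA on the same side of the ratio. With that RNA on opposite sides they were -0.68 to -0.32. Pairs of comparisons that share no RNA ran from -0.54 to 0.42, so whether the numbers pair the arrays of other RNAs was not settled. The replicate block gave 10, 14 and 21 calls between intact animals and after hypophysectomy of males and females. The cause of these changes was not tested.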
